A study of Mus musculus with 2 samples.

Results

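The family described here comprised 5 ligands of the epidermal growth factor (EGF) receptor, encoded by Areg, Ereg, Hbegf, Tgfa and Btc, and 2 receptor genes, Egfr and Erbb2. Each of the 7 symbols matched 1 of the 27998 genes listed for both libraries. Transcripts were counted as unique molecular identifiers (UMIs) in single cells from Kunming mice carrying G422TN tumours, which are grown in the brain from the mouse glioma line G422. The LTS library came from long-term survivors, mice that lived over 100 days after an unspecified combined therapy and then received the tumour again on the opposite side of the brain, after which they again lived past 100 days. Untreated mice, sampled 7 days after inoculation, gave the control library. Tissue for LTS was also taken on day 7, but which inoculation that day counts from was not clear from the labels. The number and age of the animals are not given in the sources used here.

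There was 1 library per group, so no difference below has a replicate check and no p-value is given. Intervals are 95% intervals that cover counting error only. Barcodes with at least 1000 UMIs, at least 300 genes and at most 15% mitochondrial UMIs were kept, which left 4835 LTS cells with a median of 18779 UMIs and 8310 control cells with a median of 14889.5 UMIs. The kept cells of the libraries shared 13 barcode sequences. Both samples were taken from the layer of a Percoll gradient that the protocol names for immune cells, so the recovered shares of each class depend on that step.

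Ligands of this family are made as membrane-anchored precursors, and metalloproteases such as ADAM17 and ADAM10 cut them loose. Amphiregulin (Areg) and transforming growth factor alpha (Tgfa) bind the EGF receptor, while epiregulin (Ereg), heparin-binding EGF (Hbegf) and betacellulin (Btc) also bind ERBB4. ERBB2 has no known soluble ligand and acts as the partner of the other receptors. Activated receptors signal through RAS and the kinases MEK and ERK, and amplification of EGFR is a hallmark of many human glioblastomas.

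Tumour-like cells were 9 clusters named from G422 marker genes, with 2598 LTS cells (median 40527.5 UMIs) and 5272 control cells (median 20130 UMIs). Y-linked transcripts summed to 0.870 CPM (UMIs per 1000000 UMIs of the class) in LTS tumour-like cells and 0.983 CPM in control tumour-like cells, against 140 CPM in LTS microglia-like cells and 120 CPM in control microglia-like cells. The leukocyte gene Ptprc stood at 1.97 CPM in LTS tumour-like cells and 2.25 CPM in control tumour-like cells. Most astrocyte and oligodendrocyte precursor markers were low in these cells, and a few were high. Of the astrocyte list, Gfap, Aqp4, Slc1a3, Slc1a2, Aldoc and Aldh1l1 had at most 2.25 CPM in LTS and 2.21 CPM in control. Gja1 had 291 CPM in LTS and 256 CPM in control, and Sox9 had 205 CPM in LTS and 189 CPM in control. Of the precursor list, Olig1, Olig2, Sox10, Gpr17 and Cacng4 had at most 0.0187 CPM in LTS and 0.0361 CPM in control. Cspg4 had 72.3 CPM in LTS and 73.4 CPM in control, and Pdgfra had 44.8 CPM in LTS and 41.5 CPM in control. Cspg4 is also on the mural list used here, and Pdgfra on the fibroblast list. Matrix genes were abundant too, among them Dcn with 365 CPM in LTS and 378 CPM in control. Clusters 4, 6 and 7 had more fibroblast than G422 markers among their leading genes. In host cells, names were given to microglia-like, monocyte or macrophage-like, T cell-like, B cell-like, endothelial-like, choroid plexus-like, dendritic cell-like and oligodendrocyte-like clusters. The oligodendrocyte-like cluster of 13 LTS and 10 control cells also carried mural and fibroblast markers.

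In the mm10 genome, 3 of the ligand genes and the related Epgn lie close together on chromosome 5. Epgn lies at chr5:91027464-91035215, Ereg at chr5:91074622-91093646 and Areg at chr5:91139599-91148432, all on the plus strand. Btc lies on the minus strand at chr5:91357261-91402994. Tgfa is at chr6:86195223-86275719, Egfr at chr11:16752203-16918158 and Erbb2 at chr11:98412470-98437716, all on the plus strand. The 250 bases before the starts of Areg (chr5:91139349-91139598, plus strand) and Btc (chr5:91402995-91403244, minus strand) are shown because these genes of 1 stretch of chromosome 5 had different profiles over the tumour-like clusters, as given further on. They are RefSeq sequences on GRCm38.p6, written 5′ to 3′ with matches to the searched motifs in capitals.
Areg: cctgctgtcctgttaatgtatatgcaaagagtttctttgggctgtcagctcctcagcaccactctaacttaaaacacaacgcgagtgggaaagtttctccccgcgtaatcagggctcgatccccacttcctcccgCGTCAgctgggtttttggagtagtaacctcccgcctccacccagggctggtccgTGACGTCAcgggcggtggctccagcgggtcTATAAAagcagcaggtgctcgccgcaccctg
Btc: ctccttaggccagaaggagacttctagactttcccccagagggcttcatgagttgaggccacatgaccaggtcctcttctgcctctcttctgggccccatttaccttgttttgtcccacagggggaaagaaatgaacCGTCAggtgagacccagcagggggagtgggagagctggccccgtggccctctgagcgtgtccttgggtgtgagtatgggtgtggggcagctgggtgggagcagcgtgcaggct
Promoters of Areg, Tgfa, Btc, Egfr and Erbb2 were searched on both strands. Those of Ereg and Hbegf were not searched, so a link between a motif and the cluster profiles was not tested. The Areg window held the full cyclic AMP response element TGACGTCA at bases -61 to -54 from the start, a motif found in 508 of 32851 mouse promoters of this length (1.55%). It held the TATA motif TATAAA at -31, which occurred in 12.4% of promoters. The shorter element TGACG, which the full element contains on each strand, occurred in 17.8% of promoters and was also found, read on the other strand as CGTCA, in Areg at -115 and in Btc at -113; Erbb2 held the element at -171. The AP-1 motif TGANTCA (6.75% of promoters) and the SRF CArG core (1.47%) were not in the letters of the 5 windows. A match describes these letters and shows no binding.

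In both libraries most Areg, Ereg, Hbegf and Btc transcripts lay in tumour-like cells, while most Tgfa transcripts lay in microglia-like and endothelial-like cells. Tumour-like cells also held most UMIs of all genes, with 106929558 UMIs in LTS and 110898908 UMIs in control. Microglia-like cells, the host class with most UMIs, had 5314760 in LTS and 4565808 in control. The shares below are to be read beside that. Areg, for one, had 25.7 CPM in LTS tumour-like cells and 23.5 CPM over all kept LTS cells. Tumour-like cells held 95.4% of the Areg UMIs of all kept LTS cells (95% interval 94.5 to 96.1) and 93.5% in control (92.6 to 94.4). For Ereg the share was 94.8% in LTS and 94.6% in control, for Hbegf 95.1% in LTS and 94.2% in control, and for Btc 95.4% in LTS and 94.8% in control. Of Hbegf UMIs, the host classes together held 2.07% in LTS and 2.11% in control. The remaining UMIs lay in unnamed clusters. Chief among those was cluster 13, whose cells had high doublet scores and which held 3.36% of Areg UMIs in LTS and 4.18% in control. Tgfa ran the other way, with 7.14% of its 266 UMIs in tumour-like cells in LTS (4.35 to 10.9) and 12.02% of its 258 UMIs in control (8.31 to 16.6). These shares also move with how many cells of each class were recovered.

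**Figure D1:**
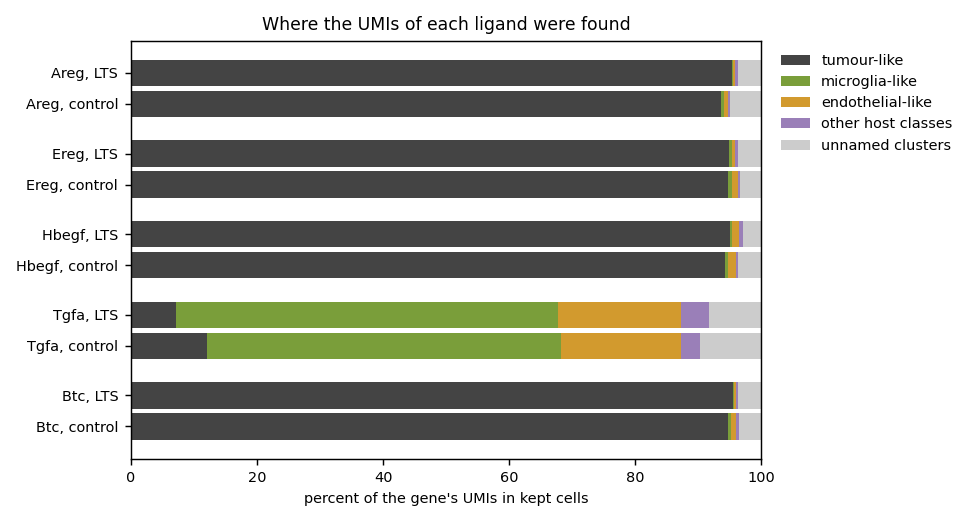
Share of each ligand's UMIs in kept cells, in percent, by class, with LTS above control for each gene. Tumour-like cells (dark grey) held 93.5% to 95.4% of the UMIs of Areg, Ereg, Hbegf and Btc, and microglia-like cells (green) held 60.5% of Tgfa UMIs in LTS and 56.2% in control. Tumour-like cells also held most UMIs of all genes.

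Areg, the amphiregulin gene, had 25.7 CPM in LTS tumour-like cells (24.8 to 26.7, 2750 UMIs) and 24.6 CPM in control tumour-like cells (23.7 to 25.6, 2732 UMIs). In microglia-like cells it had 1.13 CPM in LTS (6 UMIs) and 3.50 CPM in control (16 UMIs). Endothelial-like cells had 5.23 CPM in LTS (9 UMIs) and 9.28 CPM in control (20 UMIs). All of these host levels were below the 17.3 CPM in LTS and 14.2 CPM in control found in free RNA, taken as the barcodes with 1 to 100 UMIs. With each cell thinned to 1000 UMIs, 2.50% of LTS tumour-like cells and 2.18% of control tumour-like cells had an Areg UMI. Among microglia-like cells, with medians of 6397 UMIs in LTS and 5579 UMIs in control, it was 0 of 631 LTS cells (upper limit 0.583%) and 0.131% of control cells. Without thinning the tumour-like shares were 30.8% in LTS and 23.8% in control, at the unequal depths given above.

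Ereg, the epiregulin gene, had 23.2 CPM in LTS tumour-like cells (22.3 to 24.1, 2482 UMIs) and 21.6 CPM in control tumour-like cells (20.7 to 22.5, 2394 UMIs). Its endothelial-like level was 7.55 CPM in LTS and 10.2 CPM in control, and its microglia-like level was 2.82 CPM in LTS and 3.94 CPM in control. These host levels were again below free RNA, with 21.5 CPM in LTS (17.4 to 26.2) and 13.9 CPM in control (10.6 to 18.0). The free RNA interval overlapped the tumour-like one in LTS and lay below it in control. After thinning, 2.50% of LTS and 1.88% of control tumour-like cells had an Ereg UMI, against 0.951% of the microglia-like cells of LTS and 0.656% of those of control. Without thinning, the tumour-like shares were 42.3% in LTS and 28.5% in control.

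Hbegf, whose product is also the receptor of diphtheria toxin in human cells, had 100.3 CPM in LTS tumour-like cells (98.4 to 102, 10720 UMIs) and 93.9 CPM in control tumour-like cells (92.1 to 95.7, 10409 UMIs). Endothelial-like cells also stood above free RNA, at 66.8 CPM in LTS (55.1 to 80.2, 115 UMIs) and 64.0 CPM in control (53.8 to 75.6, 138 UMIs). Free RNA held 42.1 CPM in LTS and 47.8 CPM in control. The monocyte or macrophage-like cells, the cell type in whose human counterparts HB-EGF was first found, had 6.35 CPM in LTS (9 UMIs) and 11.8 CPM in control (17 UMIs), both below free RNA. In the dendritic cell-like cluster all 33 Hbegf UMIs of LTS came from 1 of 19 cells and all 5 of control from 1 of 18 cells, so the class level there is that of single cells. Shares after thinning were 8.24% of LTS and 7.40% of control tumour-like cells, against 1.58% of the microglia-like cells of LTS and 0.787% of those of control. The unthinned tumour-like shares were 63.4% in LTS and 54.7% in control.

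Btc, the betacellulin gene, had 15.8 CPM in LTS tumour-like cells (15.1 to 16.6, 1693 UMIs) and 14.5 CPM in control tumour-like cells (13.8 to 15.3, 1611 UMIs). The endothelial-like, microglia-like, monocyte or macrophage-like and T cell-like levels ran between 0.941 and 2.82 CPM in LTS and between 1.75 and 5.10 CPM in control. Free RNA held 8.87 CPM in LTS and 6.48 CPM in control, above each of those host levels. After thinning, 1.54% of LTS and 1.25% of control tumour-like cells had a Btc UMI, against 0.158% of the microglia-like cells of LTS and 0.394% of those of control. Before thinning it was 27.9% of LTS and 18.9% of control tumour-like cells.

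Tgfa, which encodes transforming growth factor alpha, had 0.178 CPM in LTS tumour-like cells (19 UMIs in 2598 cells) and 0.280 CPM in control tumour-like cells (31 UMIs in 5272 cells). No tumour-like cell of either library held over 1 Tgfa UMI. Microglia-like cells had 30.3 CPM in LTS (25.8 to 35.4, 161 UMIs) and 31.8 CPM in control (26.8 to 37.4, 145 UMIs). Endothelial-like cells had 30.2 CPM in LTS (22.6 to 39.6, 52 UMIs) and 22.7 CPM in control (16.8 to 30.1, 49 UMIs). Both classes stood above free RNA, with 3.33 CPM in LTS and 3.60 CPM in control, and tumour-like cells stood below it. Among monocyte or macrophage-like cells there were 0 UMIs in 227 LTS cells and 1 UMI in 418 control cells. T cell-like cells had 0 UMIs in 478 LTS cells and 95 control cells, where 3 UMIs would have been 1.67 CPM in LTS and 10.5 CPM in control. After thinning, 2.38% of the microglia-like cells of LTS and 3.02% of those of control had a Tgfa UMI (20.8% in LTS and 16.4% in control before thinning), against 0 of the T cell-like cells (upper limits 0.769% for LTS, whose median was 3231 UMIs, and 3.81% for control, whose median was 2085 UMIs). The oligodendrocyte-like and choroid plexus-like clusters held between 2 and 7 Tgfa UMIs per library.

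**Figure D2:**
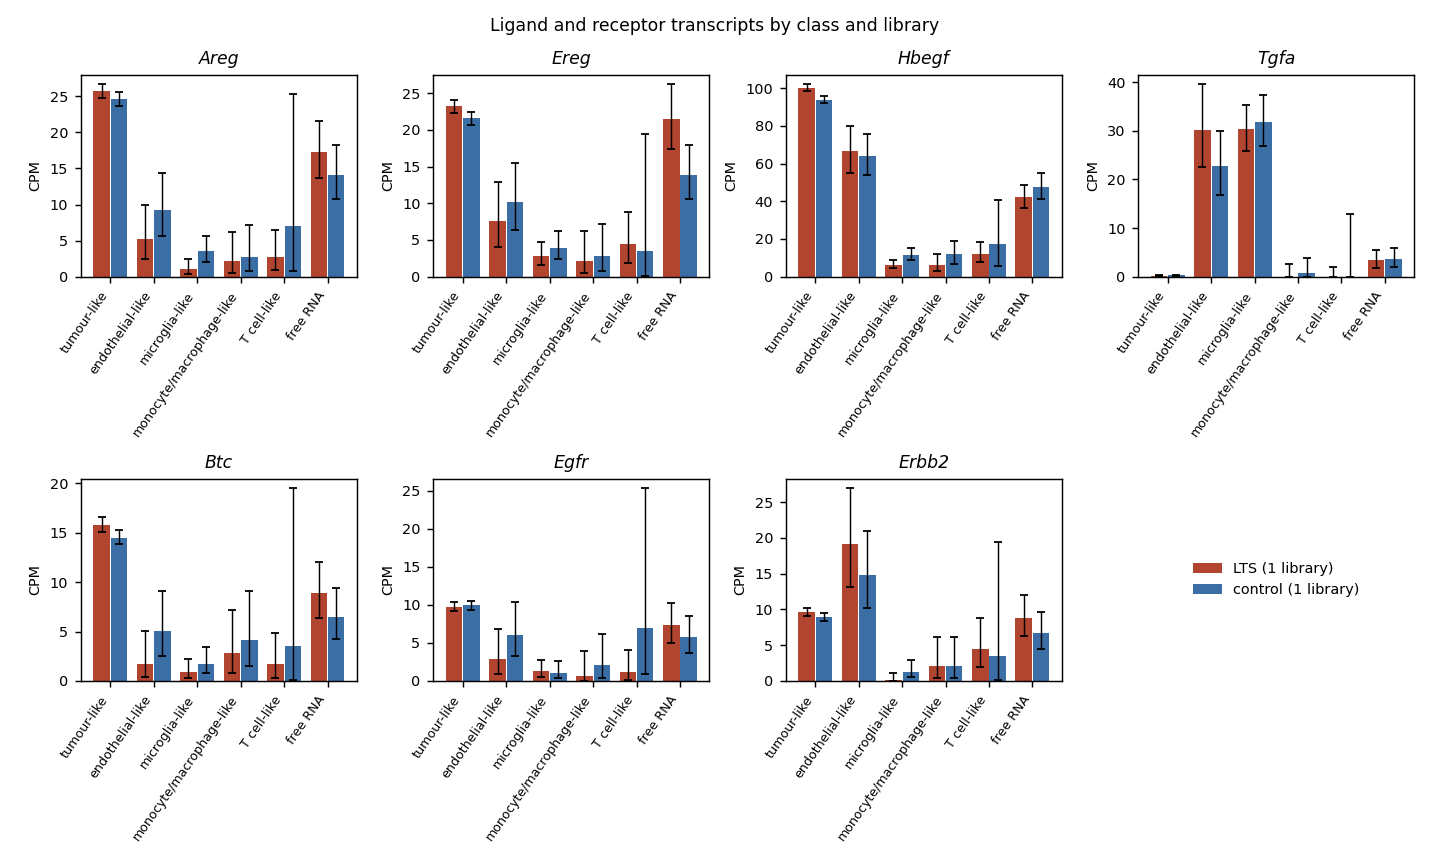
CPM of the 7 genes in tumour-like cells, 4 host classes and free RNA (barcodes with 1 to 100 UMIs), with LTS (red) left of control (blue). Bars are 1 library each and error bars are 95% Poisson intervals. Tgfa had 30.3 CPM in LTS and 31.8 CPM in control microglia-like cells and was near 0 in tumour-like cells, whereas Areg, Ereg, Hbegf and Btc were highest in tumour-like cells.

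The receptor transcripts were also found mostly in the tumour-like cells, as were most UMIs of all genes. Egfr had 9.74 CPM in LTS tumour-like cells (9.15 to 10.3, 1041 UMIs) and 9.94 CPM in control tumour-like cells (9.36 to 10.5, 1102 UMIs). These cells held 95.1% of Egfr UMIs in LTS and 94.4% in control. Microglia-like cells had 1.32 CPM in LTS and 1.10 CPM in control, and endothelial-like cells had 2.90 CPM in LTS and 6.03 CPM in control. Free RNA held 7.32 CPM in LTS (5.04 to 10.3) and 5.76 CPM in control (3.69 to 8.57). That interval overlapped the tumour-like one in LTS and lay below it in control. Thinned shares were 0.924% of LTS and 1.08% of control tumour-like cells, against 0.158% of the microglia-like cells of LTS and 0 of the 762 of control (upper limit 0.483%). Unthinned, they were 28.1% of LTS and 17.2% of control tumour-like cells.

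Erbb2 was found in tumour-like and endothelial-like cells. Its level was 9.62 CPM in LTS tumour-like cells (9.04 to 10.2, 1029 UMIs) and 8.94 CPM in control tumour-like cells (8.39 to 9.51, 991 UMIs). Endothelial-like cells had 19.2 CPM in LTS (13.2 to 26.9, 33 UMIs) and 14.8 CPM in control (10.2 to 21.0, 32 UMIs), above the tumour-like level beyond counting error in each library. Free RNA held 8.87 CPM in LTS (6.34 to 12.1) and 6.72 CPM in control (4.46 to 9.71). In each library that interval overlapped the tumour-like one and lay below the endothelial-like one. Because the endothelial-like cells were few, they held only 2.95% of Erbb2 UMIs in LTS and 3.02% in control. Microglia-like cells had 1 Erbb2 UMI in 631 LTS cells and 6 UMIs in 762 control cells. After thinning, 1.08% of LTS and 0.778% of control tumour-like cells had an Erbb2 UMI, and 30.8% of LTS and 16.6% of control cells did before it. The other receptors of the family were scarce in tumour-like cells. Erbb3 had 32 UMIs in LTS and 21 UMIs in control. Erbb4 had 0 UMIs in both libraries, where 3 UMIs would have been 0.0281 CPM in LTS and 0.0271 CPM in control.

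The remaining ligands of the family were scarce in tumour-like cells as well. Egf had 145 UMIs in LTS (1.36 CPM) and 118 UMIs in control (1.06 CPM), and Epgn had 10 UMIs in LTS and 9 UMIs in control. Nrg1, a neuregulin that binds ERBB3 and ERBB4, had 85 UMIs in LTS and 88 in control.

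Between the libraries, the members differed little in tumour-like cells. Areg in LTS was 1.04-fold the control level (0.990 to 1.10), Ereg 1.08-fold (1.02 to 1.14), Hbegf 1.07-fold (1.04 to 1.10) and Btc 1.09-fold (1.02 to 1.17). Egfr was 0.980-fold (0.899 to 1.07) and Erbb2 1.08-fold (0.986 to 1.18). Without clusters 4, 6 and 7, a setting added after the data were seen, the log2 ratio of LTS over control was 0.12 for Areg, 0.15 for Ereg, 0.12 for Hbegf, 0.19 for Btc, 0.01 for Egfr and 0.10 for Erbb2, against values between -0.02 (Egfr) and 0.09 (Ereg, Hbegf and Btc) with them. For Tgfa the ratio was 0.636 (0.339 to 1.16), on counts so low that the interval spans both directions. Of the 7 members, 3 (Areg, Ereg and Hbegf) reached 20 CPM in a library and were counted among the 6422 genes compared. None of these 3 was past 2-fold on the log2(CPM + 5) scale, as was true of nearly all genes, since 12 of 6422 (0.187%) were past 2-fold, 1 higher (0.0156%) and 11 lower (0.171%) in LTS. The median log2 ratio was 0.09 over the 3 ligands and -0.01 over all genes compared. The 1 gene past 2-fold higher was Ttr, a choroid plexus transcript, with 29.5 CPM in LTS and 5.27 CPM in control tumour-like cells.

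Host classes were compared where each library had at least 50 cells. Tgfa in microglia-like cells was 0.954-fold the control level in LTS (0.757 to 1.20), and in endothelial-like cells 1.33-fold (0.882 to 2.01). Microglia-like cells differed in make-up, since 220 LTS cells but 6 control cells came from cluster 15, led by P2ry12 and Cx3cr1. Endothelial-like Hbegf was 1.04-fold (0.808 to 1.35) and Erbb2 1.29-fold (0.770 to 2.17). Those 4 intervals include 1, which does not show that the levels were alike. Microglia-like Areg was 0.322-fold (0.103 to 0.867, 6 UMIs in LTS and 16 UMIs in control) and Hbegf 0.551-fold (0.347 to 0.864), both below 1 beyond counting error, at levels under those of free RNA.

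**Figure D3:**
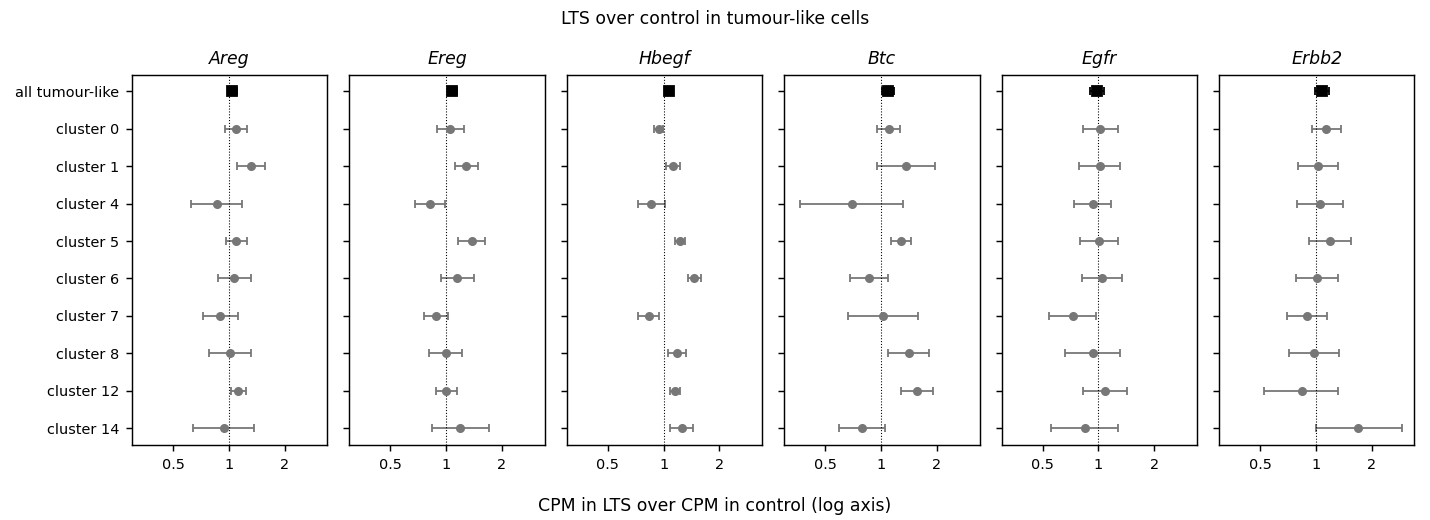
CPM in LTS over CPM in control for 6 genes, over all tumour-like cells (squares) and in each of the 9 tumour-like clusters (circles), on a log axis with 95% exact conditional intervals. The squares lie between 0.980 for Egfr and 1.09 for Btc, and the cluster values scatter between 0.698 (Btc in cluster 4) and 1.70 (Erbb2 in cluster 14).

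Across the tumour-like clusters the ligand transcripts varied far more than between the libraries. Areg was highest in cluster 12, with 135 CPM in LTS (126 to 144, 148 cells) and 120 CPM in control (112 to 128, 334 cells). Its lowest level was in cluster 4, with 8.53 CPM in LTS and 9.93 CPM in control. In LTS the clusters 4, 8, 14, 7 and 6 lay between 8.53 and 15.02 CPM, clusters 0 and 1 at 20.7 and 23.1 CPM, and cluster 5 at 29.5 CPM, and neighbours in this order overlapped in their intervals except for cluster 6 and cluster 0, cluster 1 and cluster 5, and cluster 5 and cluster 12. Cluster 12 held 5.70% of tumour-like cells in LTS and 6.34% in control, but 34.4% of tumour-like Areg UMIs in each library. Its leading genes were Il11, Grem1 and Mmp3, with Areg and Hbegf also among its top 10, although the members had been left out of the genes used for clustering. The cell with most Areg UMIs had 48 in LTS and 25 in control.

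Ereg and Hbegf also peaked in cluster 12. Ereg had 62.6 CPM there in LTS and 62.5 CPM in control, and its lowest level was in cluster 0, with 13.3 CPM in LTS and 12.6 CPM in control. The next highest Ereg levels were in cluster 1 in LTS (33.7 CPM) and in clusters 4, 7 and 1 in control (28.4, 28.1 and 26.2 CPM, with overlapping intervals). Hbegf had 292 CPM in cluster 12 in LTS and 254 CPM in control, followed by cluster 5 with 148 CPM in LTS and 120.5 CPM in control. Its lowest levels were in the matrix-rich clusters 4 and 7, at 28.7 and 36.2 CPM in LTS and 33.4 and 43.7 CPM in control. So Ereg was relatively high and Hbegf low in the clusters led by Postn, Mgp and Dmp1.

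Btc had another order. It was highest in cluster 5, a cluster led by Crabp1 and histone genes, at 35.9 CPM in LTS (32.9 to 39.1) and 28.0 CPM in control (25.7 to 30.4). Cluster 12 had 34.3 CPM in LTS, overlapping cluster 5, and 21.9 CPM in control, and cluster 14, with interferon-induced genes, had 20.5 CPM in LTS and 26.0 CPM in control. Clusters 4 and 7 were lowest, at 2.08 and 3.60 CPM in LTS and 2.98 and 3.51 CPM in control.

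The receptors did not share the order of the ligands. Egfr was highest in cluster 4, led by the matrix genes Postn, Aspn and Mgp, at 16.7 CPM in LTS (14.3 to 19.5) and 18.0 CPM in control (15.2 to 21.2). Cluster 12 followed with 15.7 CPM in LTS and 14.4 CPM in control, overlapping cluster 4, and cluster 8 was lowest with 6.27 CPM in LTS and 6.72 CPM in control. Erbb2 in cluster 12 had 5.13 CPM in LTS (3.59 to 7.10, 36 UMIs) and 6.12 CPM in control (4.52 to 8.12, 48 UMIs), against 11.98 CPM in LTS and 10.5 CPM in control in cluster 0. In cluster 4 the Areg, Hbegf and Btc levels were the lowest of the 9 clusters in both libraries while the Egfr level was the highest.

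**Figure D4:**
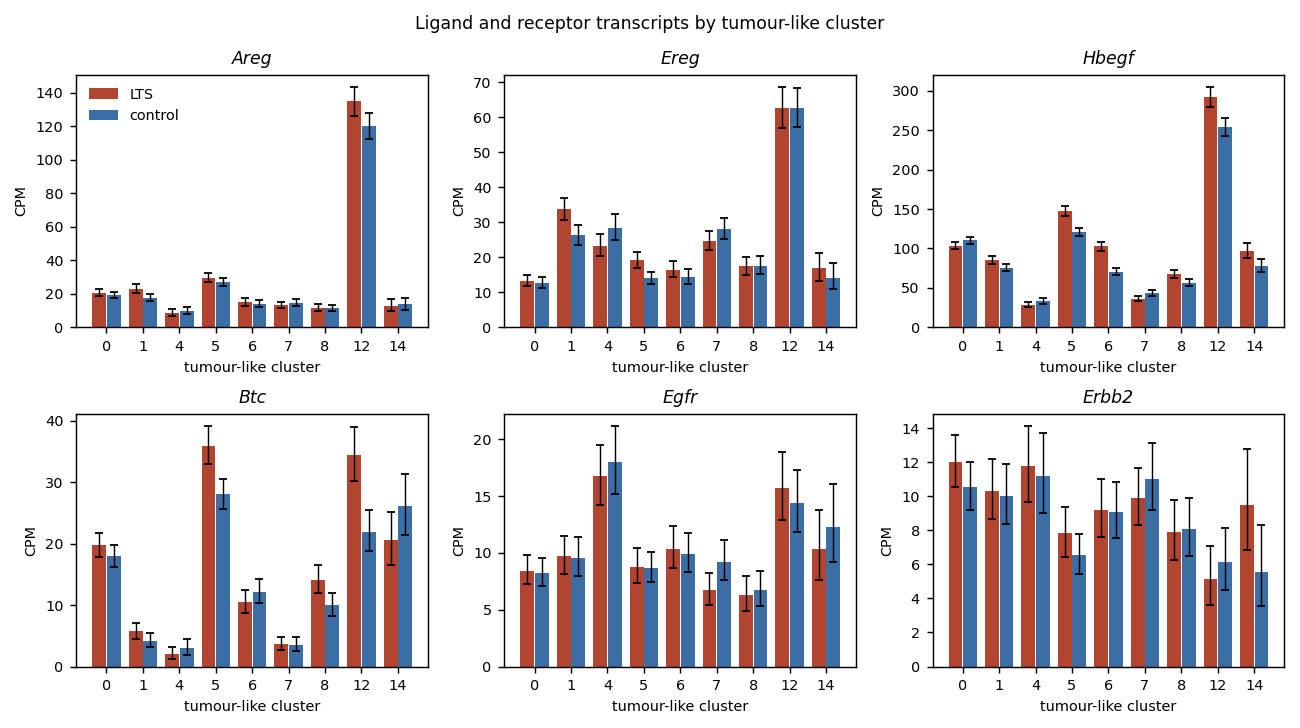
CPM of 6 genes in the 9 tumour-like clusters, with LTS (red) left of control (blue). Bars are 1 library each and error bars are 95% Poisson intervals. Areg, Ereg and Hbegf were highest in cluster 12 in both libraries, Btc in cluster 5 and Egfr in cluster 4.

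Set against all other tumour-like clusters, cluster 12 had 7.46-fold the Areg level in LTS (6.88 to 8.07) and 6.89-fold in control (6.36 to 7.46). The ratio for Ereg was 3.06 in LTS and 3.38 in control, for Hbegf 3.37 in LTS and 3.11 in control, and for Btc 2.36 in LTS and 1.57 in control. Egfr stood at 1.68-fold in LTS (1.37 to 2.05) and 1.50-fold in control (1.23 to 1.83), and Erbb2 at 0.516-fold in LTS (0.359 to 0.720) and 0.669-fold in control (0.490 to 0.895). Areg, Ereg and Hbegf were past 2-fold higher in both libraries, among 39 of 7125 genes with at least 20 CPM in a tumour-like cluster of each library (0.547%). The cluster was picked as the one with the highest Il11 level in both libraries. It is described here because the ligands were also high in it, so these ratios describe it and are no test.

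Pathway genes were then read in the same cluster. Of 14 ERK target genes with at least 20 CPM, 8 were highest in cluster 12 in both libraries (57.1%), against 978 of 7125 genes (13.7%). They were Il11, Ier3, Plaur, Fosl1, Myc, Hmga2, Ier2 and Etv5. The cluster was picked by its Il11 level, so Il11 had to be among the 8 and adds nothing to that count. Past 2-fold higher in both libraries were 3 of the 14 (21.4%), against 0.547% of all genes. Il11 was among these 3 and, for the same reason, lends no weight to that count. Etv1 was lower in cluster 12, at 54.7 CPM against 87.2 CPM elsewhere in LTS and 55.9 CPM against 83.2 CPM in control. Ier3, an immediate early gene, had 370 CPM in cluster 12 and 75.4 CPM in the other clusters in LTS, and 240 CPM in cluster 12 and 70.5 CPM in the others in control. Plaur, the urokinase receptor, had 170 CPM in cluster 12 and 65.6 CPM in the others in LTS, and 113 CPM in cluster 12 and 50.3 CPM in the others in control. Of 5 ERK phosphatases, 1 was highest there in both libraries, beside 13.7% of all genes. It was Dusp5, which had 22.9 CPM in cluster 12 and 6.31 CPM elsewhere in LTS, and 21.4 CPM in cluster 12 and 6.22 CPM elsewhere in control. Dusp1 lay the other way, at 7.41 CPM in cluster 12 and 10.8 CPM elsewhere in LTS, and 6.12 CPM in cluster 12 and 10.1 CPM elsewhere in control. Dusp14 had 28.6 CPM in cluster 12 and 13.2 CPM elsewhere in LTS, and 21.3 CPM in cluster 12 and 11.9 CPM elsewhere in control. Over the 5 phosphatases the median log2 ratio of cluster 12 over the other clusters was 0.37 in LTS and 0.38 in control.

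Among 15 receptor inhibitors, 4 were highest in cluster 12 in both libraries (26.7%), namely Errfi1, Cblb, Socs4 and Spry2. Errfi1, which encodes the EGF receptor inhibitor MIG6, had 129 CPM there against 85.3 CPM elsewhere in LTS and 120 CPM against 82.2 CPM in control. Spry1, another Sprouty gene, lay the other way, at 9.12 CPM against 37.5 CPM in LTS and 13.4 CPM against 33.6 CPM in control. Of 9 ligand shedding genes, 1 was highest in cluster 12 in both libraries (11.1%), a share below the 13.7% of all genes. It was Rhbdf2, at 38.5 CPM against 18.3 CPM in LTS and 26.3 CPM against 16.1 CPM in control. Its product iRhom2 carries ADAM17 to the cell surface. Adam17 itself had 34.2 CPM against 35.2 CPM in LTS and 35.9 CPM against 33.2 CPM in control. Rhbdf1, of the same list, was lower in cluster 12, at 19.0 CPM against 27.6 CPM in LTS and 19.9 CPM against 28.2 CPM in control. So was Frmd8, at 22.5 CPM against 34.65 CPM in LTS and 23.1 CPM against 33.9 CPM in control. Over the 9 shedding genes the median log2 ratio was -0.03 in LTS and 0.04 in control. None of 22 adaptor and kinase genes was highest there in both libraries. Of 10 genes that respond to tissue dissociation, 2 were (Dnajb1 and Ier2), again beside 13.7% of all genes, with a median log2 ratio of 0.05 in LTS and -0.01 in control. Ier2 is on this list and on that of the ERK targets.

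Over all tumour-like cells, no pathway gene was past 2-fold between the libraries, beside the 0.187% of all genes. Medians of the log2 ratio of LTS over control were 0.03 for 7 of 12 ligand shedding genes that reached 20 CPM, -0.01 for 21 of 24 adaptors and kinases, 0.05 for 15 of 18 receptor inhibitors and 0.03 for 14 of 20 ERK targets. For 2 of 8 ERK phosphatases it was 0.06 and for 8 of 18 dissociation genes -0.04. The highest values in these lists were 0.37 for Plaur (72.4 CPM in LTS, 54.7 CPM in control), 0.31 for Spry2 (20.5 CPM in LTS, 15.6 CPM in control) and 0.25 for the metalloprotease gene Adam9 (27.4 CPM in LTS, 22.2 CPM in control). Also highest in their lists were Adam10 (0.19), Ier3 (0.19), Map2k1 (0.16), Spred2 (0.16), Shc1 (0.13), Dusp6 (0.11), Fosb (0.07), Ier2 (0.05) and Dusp7 (0.01). The lowest values were -0.15 for Furin, -0.14 for Etv5, -0.11 for Adam15, -0.11 for Akt2, -0.10 for Hras, -0.10 for Ptpn2, -0.09 for Nfkbia, -0.09 for Hsp90aa1, -0.07 for Ptpn1 and -0.03 for Emp1.

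Within clusters the LTS over control ratios of Hbegf went in both directions. It was above 1 beyond counting error in 6 of 9 clusters and below 1 in 2. The highest was 1.47 (1.35 to 1.60) in cluster 6, led by Apol9a, with 103 CPM in LTS and 70.2 CPM in control, and the lowest was 0.829 (0.731 to 0.939) in cluster 7, with 36.2 CPM in LTS and 43.7 CPM in control. Btc in cluster 12 was 1.57-fold the control level in LTS (1.28 to 1.92), with 34.3 CPM in LTS and 21.9 CPM in control. Areg ratios over the clusters ran between 0.858 and 1.31, and Ereg ratios between 0.819 and 1.37. Cells of 1 library are not replicates, so these ratios compare the 2 libraries and not the conditions.

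Co-detection of ligand transcripts in the same tumour-like cell differed between pairs, after each cell was thinned to 10000 UMIs. This left 2395 LTS and 4798 control cells, with 203 LTS and 474 control cells too shallow to enter. Ereg was detected in 32.6% of LTS cells with an Areg UMI (27.6 to 38.0) and 15.3% of LTS cells without one (13.8 to 16.9). In control the shares were 29.5% (26.2 to 33.0) with Areg and 14.8% (13.7 to 15.9) without. Hbegf was detected in 64.1% of LTS cells with Areg and 36.7% without, and in 63.1% of control cells with Areg and 37.7% without. Btc was detected in 16.9% of LTS cells with Hbegf and 7.72% without, and in 14.5% of control cells with Hbegf and 7.59% without. For Btc and Ereg it lay the other way. Btc was detected in 10.8% of LTS cells with Ereg (8.05 to 14.2) and 11.6% without (10.2 to 13.1), and in 8.47% of control cells with Ereg (6.65 to 10.6) and 10.9% without (9.92 to 11.9), with overlapping intervals in each library. Without cluster 12 the control shares were 6.72% with Ereg (4.96 to 8.86) and 10.6% without (9.63 to 11.6), and without thinning the ratio was 1.38 in LTS and 1.20 in control, so no direction is read from this pair. Leaving out cluster 12, an alternative added after the data were seen, the Ereg ratio between LTS cells with and without Areg was 1.87 instead of 2.14.

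Of the 4 ligands Areg, Ereg, Hbegf and Btc, none was detected in 43.0% of LTS and 42.5% of control thinned cells. A single ligand was detected in 35.9% of LTS and 36.2% of control cells, 2 in 16.3% of cells of each library, 3 in 4.26% of LTS and 4.61% of control cells, and all 4 in 0.585% of LTS and 0.354% of control cells. In cluster 12, 58.6% of 145 LTS cells and 52.7% of 317 control cells had an Areg UMI, against 13.9% of LTS and 15.03% of control cells over all tumour-like clusters.

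Ligand and receptor transcripts overlapped less clearly. Egfr was detected in 13.8% of LTS cells with Areg (10.3 to 17.9) and 8.88% without (7.69 to 10.2), and in 12.1% of control cells with Areg (9.78 to 14.7) and 9.47% without (8.59 to 10.4). The LTS ratio of 1.55 was 1.20 without cluster 12 and 0.988 when cells were thinned to 5000 UMIs, so no direction is read from it. Erbb2 was detected in 6.29% of LTS cells with Areg (3.93 to 9.45) and 10.04% without (8.78 to 11.4), and in 6.38% of control cells with Areg (4.71 to 8.42) and 8.44% without (7.60 to 9.33). Without thinning the direction turned in both libraries, at a ratio of 1.14 in LTS and 1.12 in control against 0.626 in LTS and 0.756 in control, so none is read from it. For Erbb2 by Egfr the shares were 11.8% with and 9.28% without in LTS, and 6.98% with and 8.25% without in control, and the intervals overlapped in each library. Both a ligand and a receptor transcript were detected in 9.90% of LTS and 10.4% of control cells. Taken singly, Egfr was detected in 9.56% of LTS and 9.86% of control cells, and Erbb2 in 9.52% of LTS and 8.13% of control cells. At least 1 of the 4 ligands was detected in all but 43.0% of LTS and 42.5% of control cells. An overlap of this size can arise from independent detection, so no excess is read from it.

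**Figure D5:**
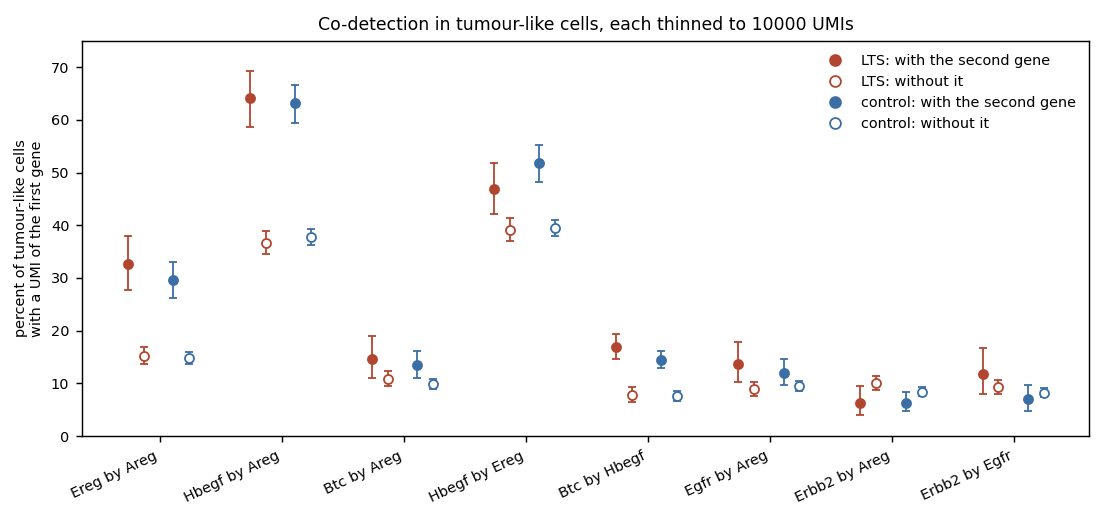
Share of tumour-like cells with a UMI of the first gene among cells with (filled) and without (open) a UMI of the second, each cell thinned to 10000 UMIs, with 95% Clopper-Pearson intervals and LTS (red) left of control (blue). Ereg and Hbegf were detected more often with Areg in both libraries, and Btc more often with Hbegf, while the Erbb2 by Egfr intervals overlap.

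The genes whose levels over the 9 tumour-like clusters were most like those of each member were ranked among 7125 genes by the lower Pearson r of the 2 libraries. The clusters share libraries and depth, so these r values describe and carry no test. For Areg they were Il11, an interleukin-6 family cytokine (r = 0.981), Ywhag, Mtpn, Plk3 and Dhx36 (0.937). Il11 had 266 CPM in cluster 12 in LTS and 229 CPM in control, and its lowest cluster had 7.38 CPM in LTS and 10.3 CPM in control. For Ereg they were Kcnq1ot1, a long noncoding RNA (0.945), R3hdm1, Desi2, the phosphate transporter gene Slc20a1 and Zfp703 (0.913). For Hbegf they were Celf4 (0.976), Tnfrsf12a, which encodes the TWEAK receptor, Eaf1, Rsl24d1 and Eif2b3 (0.961). For Btc they were the translation initiation helicase gene Eif4a1 (0.981), Higd1a, Prkrip1, the uridine phosphorylase gene Upp1 and Dynap (0.971). For Egfr they were Dab2, an endocytic adaptor gene (0.923), Alg11, Spata5, Pttg1ip and Por (0.876). For Erbb2 they were Spast, which encodes a microtubule-severing enzyme (0.942), L3mbtl3, Commd3, Ssh1 and Ppp1r9b (0.873). All genes named for Areg, Ereg and Hbegf were highest in cluster 12 in both libraries. Their r values may thus rest largely on that cluster, which was not tested.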

How the data were processed

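Single-cell transcripts were measured in 1 LTS and 1 control library, made with droplet 3′ version 3 chemistry per the labels' protocols. The authors deposited raw UMI counts, a value for each gene in each barcode. Cell Ranger 4 made them per the file headers, on the mm10 build per the submitters' processing notes. Both matrices listed all 6794880 barcodes, with 149413534 UMIs in LTS and 165796852 UMIs in control, so cells were called here by the limits given above. Scrublet marked 85 LTS cells (1.76%) and 1 control cell (0.0120%), so its calls were taken not to have worked and no cell was removed. Its scores still entered the naming, since a host cluster with a median score above 0.2 was left unnamed. This applied to cluster 13, with a median score of 0.277.

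Cells were clustered together without batch integration (2000 variable genes, 30 components, 15 neighbours, Leiden resolution 1; scanpy 1.11.5, leidenalg 0.10.2, scipy 1.17.1). The members and their families were left out of the clustering genes. Host names needed 3 markers and Y-linked transcripts, and the tumour-like name needed low Ptprc and low Y-linked levels. UMIs were summed per class and library. Intervals are exact Poisson, exact conditional (ratios) or Clopper-Pearson (shares), and treat UMIs or cells as independent. The interval of a share of a gene's UMIs does the same. A step on simulated counts recovered the direction of most large changes put into them. Those counts held no variation between cells or libraries, so the step does not bear on differences between libraries. Gene positions are from GENCODE M21.

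The named genes were the members, up to 2 with the highest and 2 with the lowest log2 ratio of each list, and 5 most like each member with at least 100 UMIs. The genes given within cluster 12 were chosen after their values were seen. The members, markers and lists were chosen with earlier results of these data known. Alternatives covered the UMI and mitochondrial limits, cluster resolution, scaling, pseudocount, free RNA, thinning and the cell with most UMIs.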

Additional observations from a re-analysis of the deposited data

Results flagged for a closer look

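The Hbegf ratio of LTS over control was 0.551 in microglia-like cells (0.347 to 0.864), with 6.40 CPM in LTS and 11.6 CPM in control, against 1.07 in tumour-like cells. It was picked out because the 2 classes pointed in opposite directions, and the difference between them was not tested. Both microglia-like levels were below that of free RNA, which held 42.1 CPM in LTS and 47.8 CPM in control, and the part of free RNA in the ratio was not tested.

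Barcodes removed for over 15% mitochondrial UMIs, 604 in LTS and 817 in control, enter no comparison but carried member transcripts above the level of 3 UMIs (1.10 CPM in LTS and 1.11 CPM in control). They had 10.3 CPM of Areg in LTS and 21.2 CPM in control, 17.3 CPM of Ereg in LTS and 17.1 CPM in control, and 49.0 CPM of Hbegf in LTS and 47.9 CPM in control. Btc had 10.3 CPM in LTS and 9.65 CPM in control, and Tgfa 1.47 CPM in LTS and 1.86 CPM in control. For the receptors, Egfr had 17.3 CPM in LTS and 14.1 CPM in control, and Erbb2 had 14.0 CPM in LTS and 9.28 CPM in control.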

How the results depend on the processing

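Of 267 values under alternative settings, 251 stayed within the intervals of the main values, 15 moved out of them and 1, whose interval had left out 1, changed direction. Counts of genes past 2-fold have no interval, and were taken to stay when near the main count. The free RNA setting took off 0% in monocyte or macrophage-like cells of both libraries, so it could not move their values. It also took off 0% in control T cell-like and endothelial-like cells. No paired analysis was possible because each group had 1 library and the labels give no replicate numbers. Weighting the control clusters to the LTS mix, a setting chosen after the data were seen, gave a log2 ratio of 0.15 for Hbegf in tumour-like cells instead of 0.09. With at least 5000 UMIs per cell the tumour-like share was 94.6% for Areg in control, 95.6% in LTS and 95.5% in control for Ereg, 95.6% in LTS and 95.2% in control for Hbegf, and 96.9% for Btc in control. At resolution 0.5 the Hbegf share in LTS was 95.5%. Weighing each endothelial-like cell equally gave a log2 ratio of 0.46 for Hbegf. Thinning to 5000 UMIs gave co-detection ratios in control of 1.96 for Hbegf by Areg and 1.60 for Hbegf by Ereg, and in LTS 0.988 for Egfr by Areg, which changed direction. Without thinning, Erbb2 by Areg was 1.14 in LTS and 1.12 in control, on the other side of 1 from its main values of 0.626 in LTS and 0.756 in control, whose intervals had included 1, Hbegf by Ereg was 1.42 in LTS and Btc by Hbegf was 3.22 in LTS. In LTS the ratio for Btc by Areg was 0.932 without cluster 12, a setting added after the data were seen, against 1.34 with it, also across 1 but within its interval. The cause of these moves was not tested. Leaving out clusters 4, 6 and 7 or adding the low-UMI cluster 2, both chosen after the data were seen, left all 7 tumour-like ratios within their intervals. With 1 library per group, differences between animals or preparations cannot be told apart from those between groups.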
